A study of Homo sapiens with 6 samples.

Results

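Nuclear receptor coregulators outside the p160 family were followed in MDA-MB-231, a human breast cancer cell line of the triple-negative kind. The set holds 41 of the 20111 genes in the deposited table. It was chosen by name, as coactivators, Mediator subunits, acetyltransferases, corepressors and chromatin remodellers that serve nuclear receptors, by a rule that uses no measured value. All 41 were found in the table. Cells were transfected with an siRNA against SHC1 (siSHC1), an siRNA against NCOA3 (siNCOA3) or a control siRNA (siControl). They were collected 48 h or 24 h later, and each siRNA gave 1 library at each time, so that 6 libraries were compared. NCOA3 is itself a p160 coactivator and is not a member, and SHC1 is an adaptor that couples receptor tyrosine kinases to RAS. All libraries share the line, which is a single cancer line kept in culture. The labels do not say whether libraries came from separate cultures, and the pair of times stands in for replicates of each siRNA. The p-values therefore reflect the spread between these libraries alone, and that spread may be technical.

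Nuclear receptors are transcription factors that many small hormones and lipids control. With an activating ligand bound, a receptor exposes a groove that holds short leucine-rich motifs of coactivators, which bring acetyltransferases, Mediator and remodellers to the promoter. Without it, or with an antagonist, several receptors instead hold NCoR or other corepressors, which bring histone deacetylases. Coregulators are shared among many transcription factors, so that they also act in cells with little hormone receptor.

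The label of the line fitted VIM, ESR1, PGR and CDH1, while ERBB2, EPCAM, COL1A1 and PDGFRB were not near 0. The mesenchymal gene VIM ranged from 887 to 1020 FPKM (fragments per gene kilobase, per M fragments of the library), while ESR1, the oestrogen receptor gene, stayed at or under 0.0922 FPKM and PGR, the progesterone receptor gene, was listed at 0 in every library. ERBB2, the HER2 gene, lay between 26.9 and 35.5 FPKM, the epithelial gene CDH1 between 0.0207 and 0.572 and EPCAM between 6.65 and 10.7. Of genes that mark other cell types, PTPRC of leukocytes and ALB of hepatocytes stayed under 0.1 FPKM, and the fibroblast-associated COL1A1 and PDGFRB lay between 2.07 and 7.47 FPKM. SHC1 had 15.5 and 14.7 FPKM at 48 h and 24 h after siSHC1, 107 and 109 after siNCOA3, and 119 and 103 after siControl. NCOA3 had 12.5 and 12.7 FPKM after siSHC1, 1.85 and 1.72 after siNCOA3, and 11.4 and 10.3 after siControl. After scaling of the libraries, SHC1 was left at 13.3% of its time-matched siControl level at 48 h and 13.4% at 24 h after siSHC1. NCOA3 was left at 16.3% and 15.4% after siNCOA3. Depth in fragments is unknown, and only relative depth could be estimated, at 1.01 to 1.45 times that of the siControl library of 24 h, which was the shallowest. The siControl library of 48 h was the deepest.

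The sequences below show where a 7-base word that was frequent in genes lower after siSHC1 stands in coregulators, including CTBP1, the member that passed the test. Whether the word plays a part in that difference was not tested. Among all 7-base words, GCCCATC had the strongest relation to lower fold changes after siSHC1 when sought in the 3′ UTR of each gene. In all, 4 stretches of the 3′ UTRs of 3 coregulators hold it. They are written 5′ to 3′ with the word in capitals, from GENCODE v29 transcripts of GRCh38, a later build than the hg19 used by the authors, for CTBP1 on chromosome 4, KAT2A on chromosome 17 and PPARGC1B on chromosome 5.
CTBP1: gcgtgcccgctGCCCATCgacgtctgtcc
KAT2A: GCCCATCtttgggccgcagccctgacctg
PPARGC1B, upstream site: gccagccaccaGCCCATCctactccctca
PPARGC1B, downstream site: ctcagtccatgGCCCATCccaggtataga
The CTBP1 word lies at bases 629 to 635 of a 3′ UTR of 792 bases. In KAT2A it is at bases 1 to 7 of 541, directly after the stop codon.

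The coregulators were expressed at well over the level of the typical gene and varied little. Of the 41, 40 reached the filter of at least 1 scaled FPKM in at least 2 libraries, among 11690 genes tested. The median of the members' mean level was 25.0 FPKM, against 13.1 FPKM over all genes tested, and 35 of the 40 lay above that. DDX5, an RNA helicase, was the highest, followed by TRIM28, a scaffold of heterochromatin-forming repression, and RBM39, a splicing factor that also coactivates receptors. These 3 exceeded 100 FPKM in every library. The median ratio of the highest to the lowest library was 1.24 for the members and 1.38 for all genes tested, after scaling of the libraries. The genes were not matched for level, so whether the members varied less than genes of like level was not tested. Among the 40 tested members MED23 varied most, with a ratio of 1.86. No tested member differed by 2-fold between siRNAs within a time or between times within an siRNA.

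**Figure D1:**
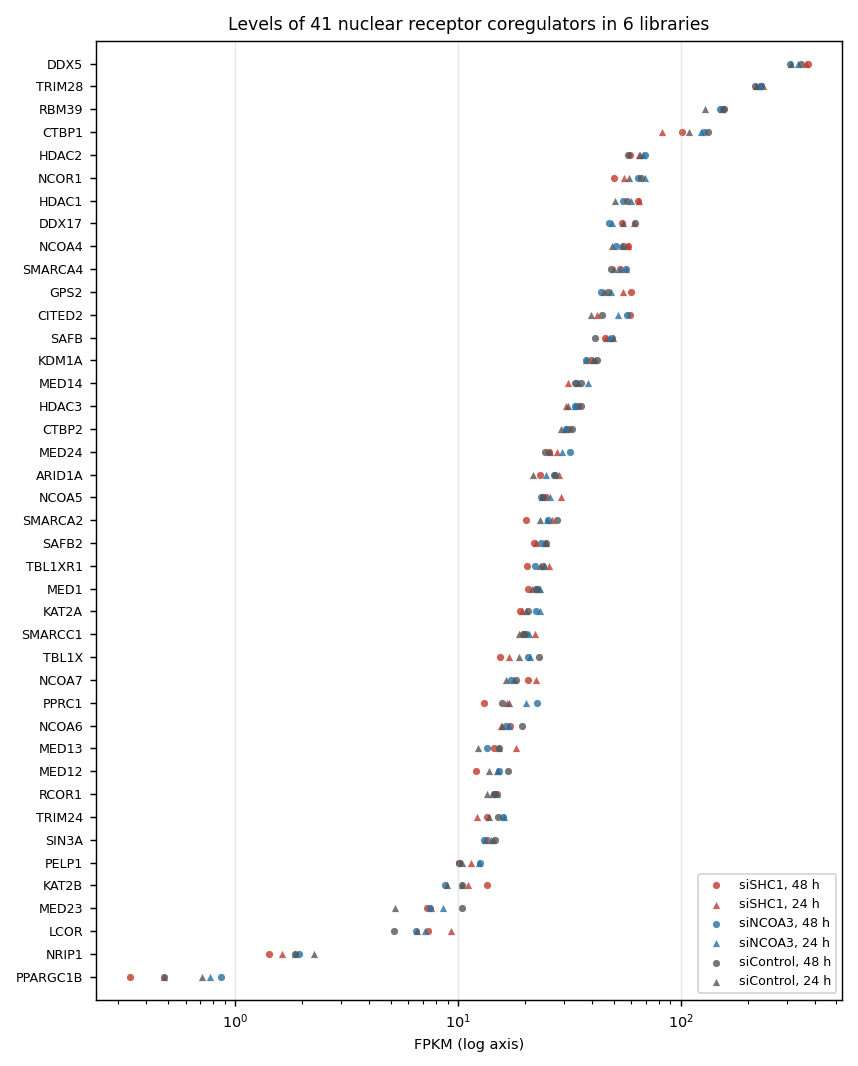
FPKM on a log axis (across) for each of 41 coregulators (down the page, ordered by mean level), with colours for siSHC1, siNCOA3 and siControl, circles for 48 h and triangles for 24 h. For most genes the 6 points lie nearly on top of each other, and PPARGC1B lies below 1 FPKM in every library.

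The lowest member, PPARGC1B, did not reach the filter and was not tested. This coactivator of mitochondrial and lipid genes had 0.337 and 0.479 FPKM at 48 h and 24 h after siSHC1, 0.865 and 0.772 after siNCOA3, and 0.480 and 0.711 after siControl. Its FPKM were highest in both siNCOA3 libraries, but at 24 h the ratio to siControl after scaling was only 1.003. Its relative PPRC1, which drives nuclear genes of mitochondrial function, had 13.2 and 16.7 FPKM after siSHC1, 22.6 and 20.2 after siNCOA3, and 15.8 and 16.9 after siControl. PPRC1 was highest in both siNCOA3 libraries. Its fitted difference was 0.32 ± 0.13 (log2 of scaled FPKM + 1, ± standard error) for siNCOA3 against siControl, with a limma Benjamini-Hochberg adjusted p of 0.463. For siSHC1 against siNCOA3 it was −0.49 ± 0.13, the largest of any member in that comparison, with a limma adjusted p of 0.0593.

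Of the members, 1 passed the test. After siSHC1, limma called 1 of the 40 members lower and 0 higher, at an adjusted p under 0.05, while it called 6.42% of all genes tested. Against siNCOA3, siSHC1 again gave 1 member lower and 0 higher, beside 9.74% of all genes. After siNCOA3, 0 members were called beside 0.111% of all genes, and between 48 h and 24 h 0 beside 0.0257%. At an unadjusted p under 0.05 limma held 7 members for siSHC1 against siControl, 11 for siSHC1 against siNCOA3, 3 for siNCOA3 against siControl and 3 for time. Among all genes these shares were 26.3%, 29.4%, 10.5% and 14.2%, against 17.5%, 27.5%, 7.5% and 7.5% of the members. The siSHC1 and siNCOA3 comparisons share the siControl libraries, so that they are not independent of each other.

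Separation of the scaled libraries gave a like picture. Both siSHC1 libraries lay above both siControl libraries for 9 members, or 22.5%, beside 24.1% of all genes, and below both for 10, or 25%, beside 23.9%. For siNCOA3 against siControl 8 members lay above and 8 below, 20% each, beside 20.1% and 19.3% of all genes. For siSHC1 against siNCOA3 10 lay above, or 25%, beside 29.5%, and 12 below, or 30%, beside 28.8%. Between times, 1 member was higher in all 3 libraries of 48 h, or 2.5%, beside 5.36%, and 2 were lower, or 5%, beside 5.22%. These shares of members stand near those of all genes. The median fitted difference of the members was −0.028, −0.011, 0.0081 and −0.026 for siSHC1 against siControl, siSHC1 against siNCOA3, siNCOA3 against siControl and 48 h against 24 h, while over all genes tested it was 0.0035, 0.0031, −0.00064 and 0.0072.

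**Figure D2:**
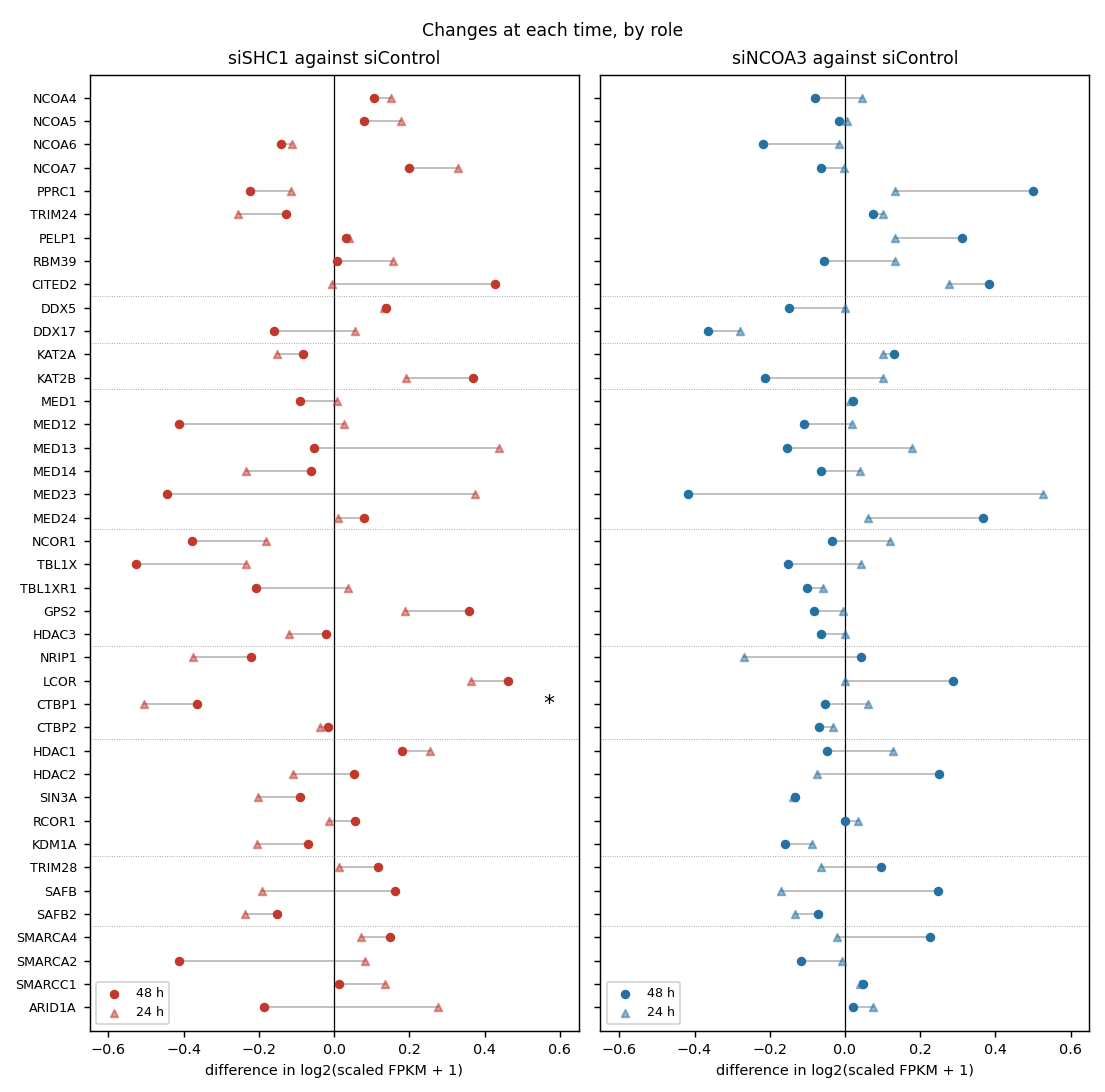
Difference in log2(scaled FPKM + 1) (across) for 40 coregulators (down the page, grouped by role), siSHC1 against siControl on the left and siNCOA3 against siControl on the right, with 1 circle for 48 h and 1 triangle for 24 h per gene and a line joining them. The star marks CTBP1, at −0.36 and −0.51, and MED23 spans 0 widely in both panels.

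CTBP1, a corepressor that binds short motifs in repressors and brings in deacetylases and demethylases, fell after siSHC1. It had 101 and 82.2 FPKM at 48 h and 24 h after siSHC1, 127 and 124 after siNCOA3, and 133 and 109.6 after siControl. Both siSHC1 libraries were below all others, and the siNCOA3 libraries lay within the range of siControl. The fitted difference was −0.44 ± 0.084 for siSHC1 against siControl, with a limma Benjamini-Hochberg adjusted p of 0.0360. Against siNCOA3 it was −0.44 ± 0.084, with a limma adjusted p of 0.0261, and for siNCOA3 against siControl it was 0.0044 ± 0.084. In a bulk library, fewer cells that express a gene and less RNA per cell cannot be told apart. The siSHC1 call against siControl was lost without scaling, without the filter on low values, without the variance trend or without the term for time, with limma adjusted p between 0.0559 and 0.132, and when any 1 siSHC1 or siControl library was left out, with limma adjusted p between 0.0559 and 0.167 and differences between −0.34 and −0.54. Against siNCOA3 it was lost without the filter, the trend or the term for time, without either siNCOA3 library and without the siSHC1 library of 24 h, with limma adjusted p between 0.0595 and 0.108. CTBP1 shares 810 exonic bases with the antisense gene CTBP1-AS, and the use of strand in counting is not given in the sources used here, so that reads of the partners may be mixed.

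CTBP2, the close relative of CTBP1, was not called in any comparison. Its levels were 31.6 and 30.3 FPKM after siSHC1, 30.7 and 30.7 after siNCOA3, and 32.6 and 29.1 after siControl. The fitted difference for siSHC1 against siControl was −0.027 ± 0.081. The ratio of CTBP1 to CTBP2 FPKM was 3.20 and 2.72 after siSHC1, 4.14 and 4.03 after siNCOA3, and 4.09 and 3.77 after siControl. Both siSHC1 ratios lay below the other 4. Separate siSHC1 and siControl ratios were also seen in most of the other related pairs. CTBP2 has 8 annotated processed pseudogenes and shares 3416 exonic bases with ZRANB1 on the opposite strand, so that its own level is uncertain.

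The word shown above was frequent in genes that fell after siSHC1. It stood in the 3′ UTR of 7.39% of 11175 tested genes with an annotated 3′ UTR, in 40.0% of the 377 of these that fell and in 4.27% of the 351 that rose. The median fitted difference was −0.14 for genes with the word and 0.013 for genes without it. The word was picked on these fold changes, so that these values describe it and do not test it. It was sought on the transcript strand only, and it shares all but its last base with TGCCCAT, the word that ranked next. An siRNA can also lower transcripts whose 3′ UTR pairs with the start of the siRNA strand, as background. No source used here gives the siRNA sequences, and whether the word belongs to one was not tested. SHC1 holds the word in its transcript but not in its 3′ UTR. Its transcript also holds the words that ranked 2 and 3, so that this does not set the word apart. How often a transcript of that length holds a given 7-base word was not tested.

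Among the 40 tested members 2 held the word, CTBP1 and KAT2A, a share of 5%. KAT2A, the acetyltransferase of the SAGA complex, had 19.1 and 19.3 FPKM after siSHC1, 22.5 and 23.5 after siNCOA3, and 20.6 and 20.2 after siControl. Both siSHC1 libraries were the lowest of the 6, but the fitted difference from siControl was −0.12 ± 0.085 with a limma adjusted p of 0.425, and that from siNCOA3 was −0.23 ± 0.085 with a limma adjusted p of 0.125. KAT2A shares 405 exonic bases with AC099811.2 of the same strand, so that its level is uncertain. The 3′ UTR of CTBP1 also held the 8-base word TGCCCATC, and those of KAT2A and PPARGC1B did not. Over all genes, 333 held the 8-base word, with a median of −0.19, and 493 held the 7-base word alone, with a median of −0.12. Of these, 87 and 94 had a fitted difference at or below that of CTBP1, called or not. The 8-base word joins GCCCATC to TGCCCAT, the word that ranked next. Both were picked on these fold changes, so that the medians and counts describe the words and do not test them.

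**Figure D3:**
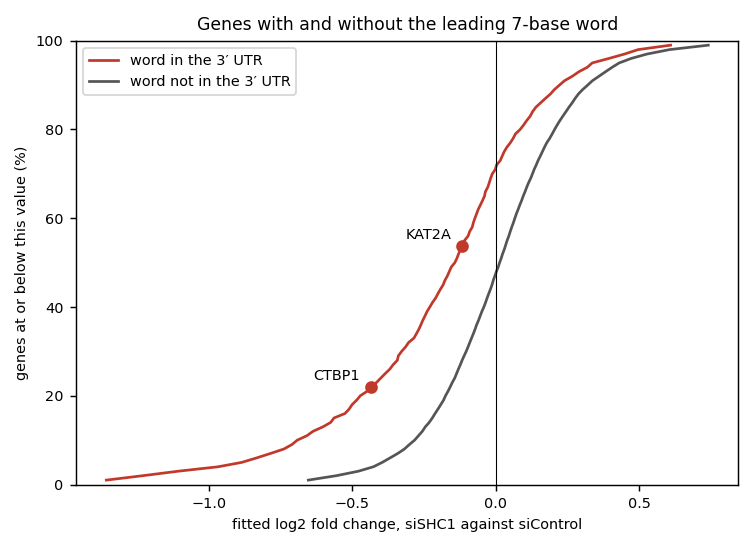
Share of genes, in percent (up), at or below each fitted log2 fold change of siSHC1 against siControl (across), for genes with the leading 7-base word in the 3′ UTR (red) and without it (grey). The red curve lies left of the grey one, with medians of −0.14 and 0.013, and the dots mark CTBP1 at −0.44 and KAT2A at −0.12.

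The leading word of the siNCOA3 comparison was GTCAAGA, in the 3′ UTR of 7.66% of genes and of 6 of the 13 genes that fell. It stood in TRIM24, TBL1XR1 and HDAC2, and none of these was called. Their fitted differences for siNCOA3 against siControl were 0.088 for TRIM24, −0.080 for TBL1XR1 and 0.087 for HDAC2. Over all genes the median was −0.060 with this word and 0.0048 without. This word too was picked on the fold changes it describes. NCOA3 holds it in its transcript but not in its 3′ UTR, as it does the words that ranked 2 and 3.

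NRIP1 and LCOR, corepressors that can bind receptors holding a ligand, stayed uncalled. LCOR had 7.36 and 9.34 FPKM after siSHC1, 6.46 and 7.11 after siNCOA3, and 5.15 and 6.58 after siControl. It was higher in siSHC1 at each time, with a fitted difference of 0.41 ± 0.12 and a limma adjusted p of 0.0845. NRIP1, which dampens oestrogen receptor and metabolic gene programmes, had 1.43 and 1.63 FPKM after siSHC1, 1.93 and 1.85 after siNCOA3, and 1.87 and 2.26 after siControl. Its siSHC1 libraries were the lowest of the 6, at −0.30 ± 0.14 against siControl, with a limma adjusted p of 0.240.

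None of the 5 members of the NCoR complex passed the test after siSHC1, beside 6.42% of all genes tested. Of the 5, 4 lay below 0 and 1 above, while 5764 of all 11690 genes lay below 0. Whether the complex differs from all genes was not tested. NCOR1, the platform subunit, had 50.0 and 55.4 FPKM after siSHC1, 64.3 and 69.3 after siNCOA3, and 66.5 and 58.9 after siControl. Both siSHC1 libraries were below the other 4. The fitted difference was −0.28 ± 0.084 against siControl, with a limma adjusted p of 0.0966, and −0.32 ± 0.084 against siNCOA3, with a limma adjusted p of 0.0575. TBL1X, a WD-repeat subunit that helps to exchange corepressors for coactivators, had 15.5 and 17.0 FPKM after siSHC1, 20.6 and 21.1 after siNCOA3, and 23.2 and 18.9 after siControl. It too was lowest in siSHC1, at −0.38 ± 0.10 against siControl with a limma adjusted p of 0.0761. Against siNCOA3 the difference was −0.33 ± 0.10, with a limma adjusted p of 0.0883.

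Another subunit lay the other way. GPS2, which holds the complex together and restrains inflammatory signalling, had 59.7 and 55.4 FPKM after siSHC1, 44.1 and 48.8 after siNCOA3, and 47.2 and 45.3 after siControl. Its siSHC1 libraries were the highest of the 6, with a fitted difference of 0.27 ± 0.090 and a limma adjusted p of 0.116. HDAC3, the deacetylase of the complex, differed by −0.070 ± 0.086, and TBL1XR1, the close relative of TBL1X, by −0.086 ± 0.097. TBL1XR1 had 20.4 and 25.7 FPKM after siSHC1, 22.3 and 24.3 after siNCOA3, and 24.2 and 23.4 after siControl, so that siSHC1 and siControl overlapped. The annotated exons of GPS2 share 1380 bases with the protein-coding gene AC026954.2 of the same strand, and NCOR1 has 3 annotated pseudogenes, so that both levels are uncertain.

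**Figure D4:**
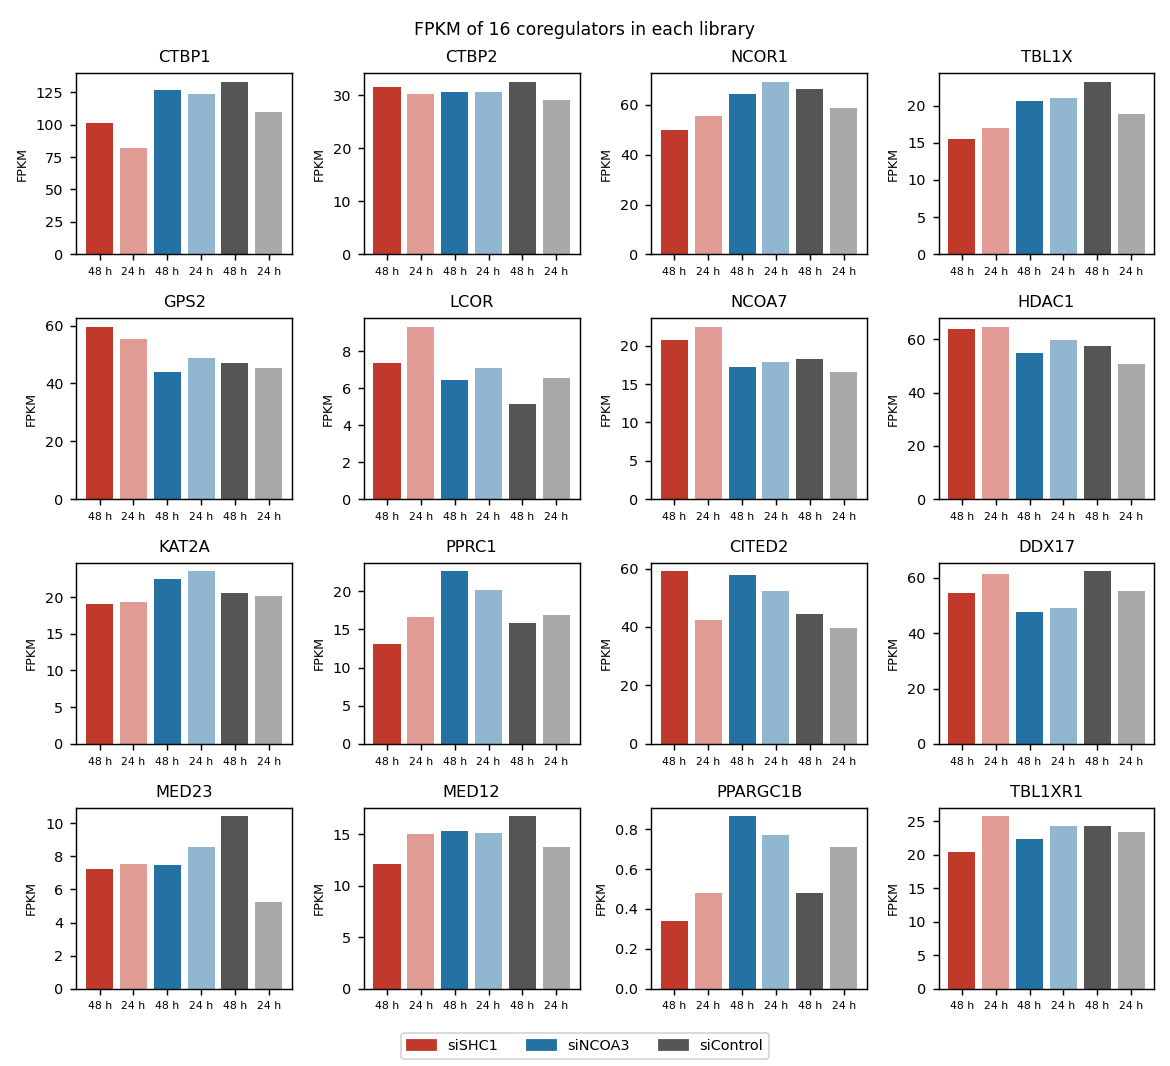
FPKM (up, from 0) of 16 coregulators in each library (across: siSHC1 in red, siNCOA3 in blue, siControl in grey, each at 48 h and then 24 h), 1 bar for 1 library and no error bar. CTBP1 stands lower in both siSHC1 bars at 101 and 82.2 FPKM while CTBP2 lies between 29.1 and 32.6, and the siControl bars of MED23, at 10.4 and 5.22 FPKM, are its highest and lowest.

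The deacetylases and the demethylase module gave no call in any comparison. HDAC1 had 64.0 and 64.8 FPKM after siSHC1, 55.0 and 59.9 after siNCOA3, and 57.4 and 50.6 after siControl. Its siSHC1 libraries were the highest, at 0.22 ± 0.082 against siControl with a limma adjusted p of 0.152. HDAC2, which joins HDAC1 in the same complexes, had 59.3 and 65.1 FPKM after siSHC1, 68.9 and 67.4 after siNCOA3, and 58.3 and 65.8 after siControl, and its siSHC1 and siControl ranges overlapped. The ratio of HDAC1 to HDAC2 FPKM was 1.08 and 0.995 after siSHC1, 0.799 and 0.888 after siNCOA3, and 0.985 and 0.769 after siControl. The ratio was thus highest in siSHC1, by little over the siControl library of 48 h. SIN3A, a deacetylase scaffold, RCOR1, the CoREST scaffold, and KDM1A, the histone demethylase that CoREST holds, differed from siControl by −0.15, 0.021 and −0.14 after siSHC1 and by −0.14, 0.018 and −0.12 after siNCOA3, each with a limma adjusted p above 0.05.

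The remaining corepressors gave no call. TRIM28 had 231 and 235 FPKM after siSHC1, 229 and 226 after siNCOA3, and 216 and 218 after siControl. SAFB, a scaffold-attachment protein that represses the oestrogen receptor, had 45.7 and 46.5 FPKM after siSHC1, 49.0 and 47.7 after siNCOA3, and 41.5 and 49.8 after siControl. Its neighbour and relative SAFB2 had 22.0 and 22.5 FPKM after siSHC1, 23.6 and 24.6 after siNCOA3, and 25.0 and 25.0 after siControl. SAFB2 was thus lowest after siSHC1, with a fitted difference of −0.19 ± 0.084 and a limma adjusted p of 0.200, while SAFB overlapped between siSHC1 and siControl. Related genes such as these can share reads, and how the authors divided those reads is not given in the sources used here.

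Coactivators that bind receptors directly gave no call. NCOA7, an oestrogen receptor-associated protein, had 20.7 and 22.5 FPKM after siSHC1, 17.3 and 17.8 after siNCOA3, and 18.2 and 16.5 after siControl. Both siSHC1 libraries were above the other 4, at 0.27 ± 0.089 against siControl with a limma adjusted p of 0.120. The others differed after siSHC1 by 0.13 for NCOA4, which also delivers ferritin for degradation, by 0.13 for NCOA5, by −0.13 for NCOA6, part of a histone methyltransferase complex, and by −0.19 for TRIM24, a reader of histone marks. RBM39 and PELP1, a scaffold for steroid receptor signalling, lay at 0.083 and 0.035. After siNCOA3 these 7 lay between −0.12 for NCOA6 and 0.22 for PELP1. PELP1 had 10.1 and 11.4 FPKM after siSHC1, 12.6 and 12.4 after siNCOA3, and 10.1 and 10.4 after siControl. Its siNCOA3 difference of 0.22 ± 0.10 had a limma adjusted p of 0.515.

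CITED2, which binds the acetyltransferases CBP and p300 and limits the hypoxia response, had the largest siNCOA3 difference of any member. It had 59.0 and 42.3 FPKM after siSHC1, 57.6 and 52.3 after siNCOA3, and 44.4 and 39.7 after siControl. Both siNCOA3 libraries were above both siControl libraries, with a fitted difference of 0.33 ± 0.12 and a limma adjusted p of 0.411. After siSHC1 the library of 48 h stood at the siNCOA3 level and that of 24 h at the siControl level.

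The helicases DDX5 and DDX17, which act as coactivators and in RNA processing, were compared as a pair. DDX17 had 54.6 and 61.5 FPKM after siSHC1, 47.7 and 49.1 after siNCOA3, and 62.2 and 55.3 after siControl. It was lowest in both siNCOA3 libraries, at −0.32 ± 0.086 against siControl with a limma adjusted p of 0.322. DDX5 had 375 and 366 FPKM after siSHC1, 310.1 and 337 after siNCOA3, and 347 and 312 after siControl, with overlap between siNCOA3 and siControl. The ratio of DDX5 to DDX17 was 6.86 and 5.95 after siSHC1, 6.50 and 6.87 after siNCOA3, and 5.57 and 5.64 after siControl, so that both siControl ratios were the lowest.

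The acetyltransferases KAT2A and KAT2B, which replace each other in SAGA-type complexes, lay in opposite directions after siSHC1. KAT2B had 13.5 and 11.1 FPKM after siSHC1, 8.75 and 10.4 after siNCOA3, and 10.4 and 8.95 after siControl. The siSHC1 libraries were the highest, at 0.28 ± 0.13 against siControl with a limma adjusted p of 0.238. Against siNCOA3 the difference was 0.34 ± 0.13, with a limma adjusted p of 0.151. The ratio of KAT2A to KAT2B was 1.41 and 1.75 after siSHC1, 2.57 and 2.25 after siNCOA3, and 1.98 and 2.26 after siControl. Both siSHC1 ratios were below the other 4. Among the 8 related pairs, siSHC1 and siControl ratios overlapped only for SMARCA4 to SMARCA2. Separation from siControl is thus not particular to this pair, and its share among other gene pairs was not computed.

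The 6 Mediator subunits, which link activators to RNA polymerase II, gave no call. MED1, the subunit that nuclear receptors bind, had 20.7 and 23.1 FPKM after siSHC1, 22.7 and 23.4 after siNCOA3, and 22.5 and 21.5 after siControl. MED12 and MED13 of the kinase module, MED14, the central scaffold, and MED24 of the tail differed after siSHC1 by −0.19, 0.19, −0.15 and 0.046, and after siNCOA3 by −0.045, 0.012, −0.011 and 0.21. MED12 after siSHC1 had 12.1 FPKM at 48 h and 15.0 at 24 h, against 16.7 and 13.8 after siControl, so that the direction turned between times. MED23, a tail subunit that receives kinase-driven activators, had 7.26 and 7.55 FPKM after siSHC1, 7.48 and 8.59 after siNCOA3, and 10.4 and 5.22 after siControl. The siControl libraries were the highest and the lowest of the 6, and the fitted siSHC1 difference was −0.034 ± 0.23.

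The SWI/SNF remodellers were likewise uncalled. The ATPase SMARCA4 had 53.2 and 56.7 FPKM after siSHC1, 56.8 and 53.7 after siNCOA3, and 48.8 and 50.4 after siControl. The alternative ATPase SMARCA2 had 20.3 and 26.5 FPKM after siSHC1, 25.3 and 25.1 after siNCOA3, and 27.8 and 23.3 after siControl. SMARCA4 was thus the more abundant in every library per length, by 1.76 to 2.63 times. The core subunit SMARCC1 and the DNA-binding subunit ARID1A differed by 0.075 and 0.045 after siSHC1 and by 0.044 and 0.047 after siNCOA3.

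Time gave no call among the members. The largest fitted differences for 48 h against 24 h were −0.26 ± 0.095 for LCOR, 0.23 ± 0.094 for CITED2, 0.20 ± 0.18 for MED23 and 0.18 ± 0.069 for CTBP1, with limma adjusted p of 0.321, 0.341, 0.649 and 0.327. After scaling, HDAC3 stood higher in all libraries of 48 h than in those of 24 h, and NCOA5 and MED1 stood lower.

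Within siSHC1, the difference between times was lower in longer transcripts of the coregulators. Spearman's rho between length and the difference of 48 h against 24 h was −0.50 over the 40 members in siSHC1, −0.051 in siNCOA3 and −0.016 in siControl. Over 11460 genes it was −0.10, −0.10 and 0.023. Whether the siRNAs or the members and all genes differ in this was not tested. The points share 1 pair of libraries each and are not replicates. Length also enters FPKM, though mostly alike in both libraries of a pair. The 20 members longer than the median of 5301 bases had a median of −0.12 in siSHC1, with 15 below 0, and the 20 shorter ones a median of 0.0083, with 9 below 0. For siSHC1 against siControl at 48 h rho was −0.37 over the members and −0.16 over all genes, and at 24 h −0.036 and −0.060. At 48 h the long members NCOR1, TBL1X and SMARCA2 were lower after siSHC1 than after siControl, while LCOR, the longest, and NCOA7 were higher. The part of this relation in the values of long members was not tested.

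**Figure D5:**
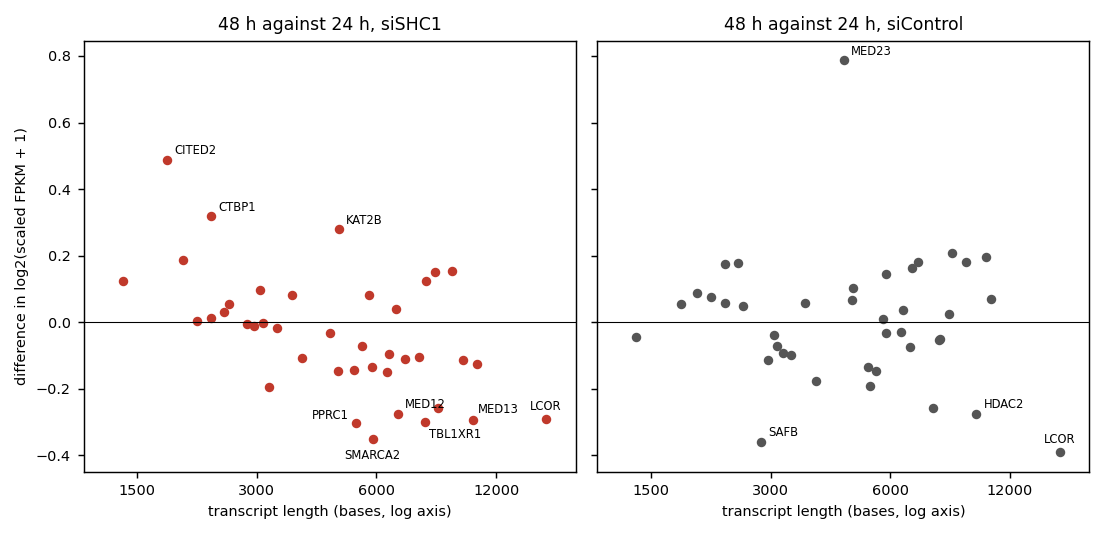
Difference of 48 h against 24 h in log2(scaled FPKM + 1) (up) against annotated transcript length in bases (across, log axis) for 40 coregulators, in siSHC1 (left) and siControl (right), with members beyond 0.27 in size named. In siSHC1 most points on the right lie below 0, with rho of −0.50, while in siControl they scatter, with rho of −0.016.

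Among 132 further coregulator genes tested, 6 fell after siSHC1 and 0 rose by limma. The share that fell was 4.55%, beside 3.32% of all genes tested, and the share that rose was 0%, beside 3.11%. In both directions together limma called 6.42% of all genes tested. Over all genes limma called 363 higher and 388 lower, with a median of 0.0035, and with equal library totals in place of the median of ratios 209 higher and 496 lower. Of 26 other Mediator subunits, 1 fell and 0 rose, with a median of −0.036. MED22, a head subunit, had 12.3 and 10.0 FPKM after siSHC1, 17.0 and 14.4 after siNCOA3, and 18.5 and 18.1 after siControl, a difference of −0.70 ± 0.12 with a limma adjusted p of 0.0247. Of 21 tested SWI/SNF subunits 0 were called, with a median of −0.054.

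Of 27 tested subunits of deacetylase complexes 3 fell and 0 rose, with a median of −0.018. Over all genes tested 3.32% fell and 3.11% rose, and whether this list, 1 of 5, differs from them was not tested. HMG20B, a partner of KDM1A and CoREST, fell by 0.96 on the log2 scale, with 55.7 and 44.9 FPKM after siSHC1, 101 and 103 after siNCOA3, and 103 and 89.6 after siControl. MTA1, a NuRD subunit, fell by 0.74, with 35.4 and 34.6 FPKM after siSHC1 against 61.9 and 53.8 after siControl. CHD4, the NuRD remodelling ATPase, fell by 0.45, with 30.3 and 28.2 FPKM after siSHC1 against 41.0 and 37.6 after siControl. All 3 were lower in both siSHC1 libraries than in every other library, with limma adjusted p of 0.00590, 0.00723 and 0.0342.

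Of 21 SAGA and PCAF subunits 1 fell and 0 rose, beside 3.32% and 3.11% of all genes tested, with a median of 0.014. It was TAF5L, with 7.48 and 9.21 FPKM after siSHC1 against 12.3 and 11.9 after siControl, a difference of −0.53 ± 0.11 and a limma adjusted p of 0.0432. Of 39 tested other receptor coregulators 2 fell and 0 rose, with a median of −0.020. They were MTA1, listed here too, and TGFB1I1, an androgen receptor coactivator at focal adhesions, which fell by 0.66 with a limma adjusted p of 0.0168. The word GCCCATC stood in 7 of these further genes, all 7 with a difference below 0 after siSHC1, and MED22, CHD4 and HMG20B were the 3 of them that fell. Of the 123 without the word, 64 lay below 0 and 3 fell. Over all tested genes with an annotated 3′ UTR, 589 of the 826 with the word lay below 0 and 151 fell. Of the 10349 without it, 4919 lay below 0 and 226 fell. The word was picked on fold changes that include those of these further genes, so that the counts describe it and do not test it. In the siNCOA3 comparison and between times 0 genes of the 5 lists were called by limma.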

How the data were processed

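Messenger RNA was sequenced from 6 libraries of MDA-MB-231 cells, with a stranded mRNA kit per the labels' protocols. STAR, Cufflinks and DESeq2 and the build hg19 are named, per the submitters' processing notes, without roles or versions. Annotation, filters and any use of strand were not given in the sources used here. Although the table's name speaks of read counts, the authors deposited FPKM: values are not whole, and 1 fragment is worth less in longer genes. No count test was therefore run, and limits that need counts are not given.

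FPKM were scaled by the median of ratios over 11042 genes with at least 1 FPKM in all 6 libraries (factors 0.947 to 1.02). Genes with at least 1 scaled FPKM in at least 2 libraries (11690) were tested on log2(scaled FPKM + 1), pseudocount 1, with limma (lmFit, eBayes with trend and robust moderation). All 6 libraries entered 1 fit, additive in siRNA and time, with 2 residual degrees of freedom. P-values were adjusted by Benjamini-Hochberg over all genes tested, threshold 0.05. Fold changes understate changes of low genes.

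Transcripts came from GENCODE v29 of GRCh38, 1 per gene (longest coding sequence), matched by symbol to 98.0% of tested genes. All 7-base words found in at least 100 3′ UTRs of at least 30 bases were ranked by the difference in mean fold change over its standard error, towards lower values. Relative depth was read from the commonest ratio of low values between libraries.

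Named with values are members called in any comparison, the 4 largest differences in each comparison, both members of 8 related pairs, and the highest and lowest member, with up to 4 called genes from each of 5 further lists. The other members are given too, outside that rule, so that each is accounted for. Membership uses no measured value, but the members, lists and tests were chosen with earlier results of these data known. The alternatives were other scalings, filters and pseudocounts, no trend, no robust moderation, fewer libraries in the fit, no term for the other factor, and leaving out each library. Python 3.11.15, numpy 2.4.6, pandas 2.3.3, matplotlib 3.10.9, R 4.3.3 and limma 3.58.1 were used. A result for 1 further gene is not reported here.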

Additional observations from a re-analysis of the deposited data

Results flagged for a closer look

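MED23, a tail subunit of Mediator, differed in direction between times. After siSHC1 it was lower than siControl at 48 h, by −0.44 on the scale of log2(scaled FPKM + 1), and higher at 24 h, by 0.38, so that the effects of the times differed by −0.82. After siNCOA3 the values were −0.42 at 48 h and 0.53 at 24 h, a difference of −0.94. With 1 library per siRNA and time, the difference was not tested. Both results use the same siControl libraries, in which MED23 had 10.4 FPKM at 48 h and 5.22 FPKM at 24 h, the highest and lowest of the 6. These are also the deepest and the shallowest library by estimated relative depth, and the part of depth was not tested.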

How the results depend on the processing

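The count of coregulators called depended on the processing. For siSHC1 against siControl it was 1 as reported and 0 with no filter on low values, no scaling, no trend or no term for time. With 1 library left out it ranged from 0 to 1: it was 0 without either siSHC1 or either siControl library and 1 without either siNCOA3 library. For siSHC1 against siNCOA3 it was 2 with equal library totals (CTBP1 and NCOR1), 3 with a mean of at least 5 FPKM (CTBP1, NCOR1 and PPRC1) and 0 with no filter, no trend or no term for time. With 1 library left out this count ranged from 0 to 1, and without the 24 h library of siNCOA3 or of siSHC1 the called member was PPRC1 in place of CTBP1. Why these counts moved was not tested. For siNCOA3 against siControl and for time it was 0 in every alternative. Over all genes the count ranged from 2 to 867 for siSHC1 against siControl, 4 to 1249 for siSHC1 against siNCOA3, 0 to 38 for siNCOA3 against siControl and 0 to 64 for time. Differences of at least 0.2 in size or with an unadjusted p under 0.05 did not change sign in any alternative: of these values under the alternatives, 487 kept direction and side of the threshold, 14 lost the call and 5 gained it. Smaller differences did change sign: over the 40 tested members, in at least 1 alternative, 15 did for siSHC1 against siControl, 25 for siNCOA3 against siControl, 18 for siSHC1 against siNCOA3 and 20 for time. The largest of these was the time difference of MED23, which is 0.199 before rounding to 0.20. It changed sign in 2 alternatives and reached −0.097. The median over the members ranged from −0.088 to 0.023 for siSHC1 against siControl. The labels give no replicate numbers, and libraries are paired by time, which is a term of the reported fit; without that term the counts of members called were 0 and 0 for siSHC1 against siControl and against siNCOA3. Depth in fragments is unknown, so that counting error could not be set beside the spread of low members such as NRIP1 and PPARGC1B.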

Other observations

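Set directly against siNCOA3, siSHC1 had 3 of 132 further coregulator genes higher and 6 lower by limma. Together they made 6.82%, beside 9.74% of all genes tested. By direction, 2.27% were higher and 4.55% lower, beside 5.35% and 4.40% of all genes tested. Over all genes 625 were higher and 514 lower, and with equal library totals 510 higher and 646 lower. Of 21 tested SWI/SNF subunits 2 were higher in siSHC1 than in siNCOA3 and 0 lower. PHF10 had 56.0 and 48.8 FPKM at 48 h and 24 h after siSHC1, against 37.2 and 40.7 after siNCOA3 (0.43 ± 0.10, limma adjusted p of 0.0426). BCL7B had 25.1 and 28.6 FPKM after siSHC1 against 20.0 and 20.4 after siNCOA3 (0.41 ± 0.088, limma adjusted p of 0.0364), but its siControl libraries stood at 28.7 and 28.7. Of 26 Mediator subunits MED30 was higher, with 12.1 and 12.4 FPKM after siSHC1 against 7.69 and 6.28 after siNCOA3 (0.75 ± 0.13, limma adjusted p of 0.0216), and 8.89 and 9.70 after siControl.

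Lower in siSHC1 than in siNCOA3 were, among others, CHD4, HMG20B, MTA1, TAF5L and FHL2. FHL2, a LIM-domain coactivator of the androgen receptor, had 22.3 and 22.5 FPKM after siSHC1 against 33.0 and 32.9 after siNCOA3 (−0.52 ± 0.11, limma adjusted p of 0.0308). In siControl FHL2 had 28.0 and 32.2 FPKM.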
